A study of Mus musculus with 4 samples.

Results

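A list of 30 genes that mark Sertoli cells or build the blood-testis barrier was followed in testis RNA of Tas1r3-deficient and wild-type mice. The genes were chosen by symbol, and 30 of 30 matched among the 17924 symbols of the table. All 30 reached 1 CPM or more in 2 or more of the 4 libraries, as did 17744 symbols in all. CPM stands for the reads of a gene scaled to a total of 1000000 in every library. The members fall into 11 genes of Sertoli cell identity and hormone response, 10 genes of secreted factors and 9 genes of cell junctions.

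Bulk RNA sequencing was done on whole testis of male C57BL/6 mice, all kept on normal diet (18 weeks per the labels). The groups were 2 Tas1r3 KO samples, which lack a taste receptor subunit common to sweet and umami sensing, and 2 WT samples. The sources used here do not give the age of the mice, how the Tas1r3 allele was made or whether each sample was a separate animal, so p-values measure only the spread between these samples. The value of 1 read, estimated from the step between low values, gave about 748643 and 597943 reads in KO samples 1 and 2, against 1719395 and 1807664 reads in WT samples 1 and 2. WT libraries were thus 2.62 times deeper on average, and the depths of the genotypes did not overlap. Tas1r3 itself stood at 1.34 and 0 CPM in KO samples 1 and 2 (1 and 0 reads), against 13.8 and 20.5 CPM in WT samples 1 and 2 (24 and 37 reads).

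Sertoli cells are the somatic cells of the seminiferous tubule. They surround and feed the germ cells, answer follicle-stimulating hormone and testosterone, and secrete factors that act on germ cells, Leydig cells and the pituitary. Neighbouring Sertoli cells are joined by tight, gap and adherens-type junctions, and these junctions form the barrier that separates meiotic and later germ cells from blood and lymph. Several members are not particular to Sertoli cells: Gata4, Amhr2 and Vim are also made by other somatic cells of the testis, and Ctnnb1, Tjp1, Ctsl and Clu by many cell types. In bulk tissue, fewer Sertoli cells and less RNA per Sertoli cell cannot be told apart.

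Promoters of 3 members are shown as examples, each with a match, and other members with a match are named below. Rhox5 and Defb36 hold the androgen receptor core letters AGAACA, and Amhr2 the letters AAGGTCA that nuclear receptors of the NR5A family bind. Each run is the 250 bases before the annotated start on the plus strand, from RefSeq on GRCm38.p6, an older build than that of the expression tables, and capitals mark every match to the 6 motifs searched on both strands.
Rhox5, chrX:37754358-37754607: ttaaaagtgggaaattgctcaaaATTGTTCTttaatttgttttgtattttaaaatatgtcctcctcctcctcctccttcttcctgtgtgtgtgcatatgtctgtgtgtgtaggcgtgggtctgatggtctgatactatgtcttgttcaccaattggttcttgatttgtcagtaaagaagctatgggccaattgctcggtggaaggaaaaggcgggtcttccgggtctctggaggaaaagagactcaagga
Defb36, chr2:152604077-152604326: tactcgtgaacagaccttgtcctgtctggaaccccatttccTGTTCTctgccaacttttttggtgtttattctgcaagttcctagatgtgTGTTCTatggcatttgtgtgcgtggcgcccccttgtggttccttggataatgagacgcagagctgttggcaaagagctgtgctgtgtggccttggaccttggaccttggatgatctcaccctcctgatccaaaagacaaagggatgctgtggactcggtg
Amhr2, chr15:102445117-102445366: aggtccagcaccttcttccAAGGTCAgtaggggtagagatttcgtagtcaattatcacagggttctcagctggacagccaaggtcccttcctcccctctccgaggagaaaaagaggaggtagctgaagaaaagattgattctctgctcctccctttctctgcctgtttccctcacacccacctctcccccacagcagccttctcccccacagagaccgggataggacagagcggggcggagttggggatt
In Rhox5 the capitals join an ACAAT match of the SOX core, read on the opposite strand, to an overlapping androgen receptor core that starts 225 bases before the annotated start. In Defb36 the androgen receptor core lies on the opposite strand at 209 and 160 bases before the start. The match in Amhr2 starts 231 bases before the start.

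RefSeq promoters matched 21 of the 30 members, in 26 windows of this length. The 9 members without a window, not searched here, were Sox9, Wt1, Gata4, Rhox8, Aard, Amh, Clu, Trf and Cdh2. The androgen receptor core was in 2 of these 26 windows (7.69%) and in 16.1% of all 32851 windows. SOX cores (ACAAT) were in 3 of 26 windows, those of Rhox5, Ctsl and Gdnf (11.5%), against 27.7% of all windows. GATA sites (AGATAA) were in the windows of Gdnf and Gja1 (7.69%), against 9.99% of all windows, and the NR5A letters in that of Amhr2 (3.85%), against 4.08%. The full cyclic AMP response element TGACGTCA was in 0 of the 26 windows and in 1.55% of all windows. The shorter TGACG, which the full element contains, was in the windows of Ctnnb1, Gdnf and Gja1, 3 of 26 (11.5%), against 17.8% of all windows. These are matches of letters, and they say nothing of whether a factor binds.

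All 30 genes were detected in at least 3 of the 4 libraries, a count that the minimum of 1 CPM in 2 libraries nearly fixes and that does not show which cells made the RNA. Per kilobase of transcript, the highest member was Clu, averaging 616 CPM per kb over the 4 libraries (range 551 to 653). Amhr2 (111 CPM per kb), Aard (81.4 CPM per kb), Inha (63.0 CPM per kb), Ctsl (54.4 CPM per kb) and Defb36 (50.9 CPM per kb) came next. At the other end were Gdnf (0.405 CPM per kb), Fshr (1.36 CPM per kb), Ocln (1.86 CPM per kb) and Amh (1.94 CPM per kb). Clu, which encodes the secreted chaperone clusterin, made up between 43.2% and 44.4% of the summed CPM of the 30 genes in each library. No member shared its values with another gene (0 of 30), and 0 members overlapped another gene of the table on its coordinates.

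Between the genotypes, 0 of the 30 members passed the test over all genes, in either direction. The test was limma on log2(CPM + 1) with Benjamini-Hochberg adjustment at 0.05, and 0.00564% of the 17744 genes tested passed it. That share is 1 gene, Ptchd3, named after its values were seen, at 62.1 and 53.3 CPM in KO and 264 and 240.6 CPM in WT (log2 fold change -2.11, adjusted p = 0.0197). The targeted gene itself did not pass: Tas1r3 had a log2 fold change of -3.54 (SE 0.60), an unadjusted limma p of 0.000388 and an adjusted p of 0.942, so a loss of nearly all reads of a gene at this level was not called. Among the members the smallest unadjusted limma p was 0.106, for Trf, and adjusted p lay between 0.942 and 0.998; 0 members and 4.69% of all genes had an unadjusted p under 0.05. The fold change was above 0 for 14 members (46.7%, beside 44.6% of all genes) and below 0 for 16, with a median log2 fold change of -0.07 (KO over WT), beside -0.05 over all genes tested. Without KO sample 1 the members' median was -0.22, and without KO sample 2 it was 0.12. Both KO samples lay outside the WT range on the same side in 7 of 30 members (23.3%), beside 34.4% of all genes. Of these, 4 lay above the WT range, beside 15% of all genes, and 3 below it, beside 19.4%. These numbers do not show that the levels were equal: 12 of the 30 members had fewer than 10 reads in at least 1 KO library. For low members the estimated reads therefore allow wide ranges of change, which are given below as exact 95% intervals for counting error only.

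**Figure D1:**
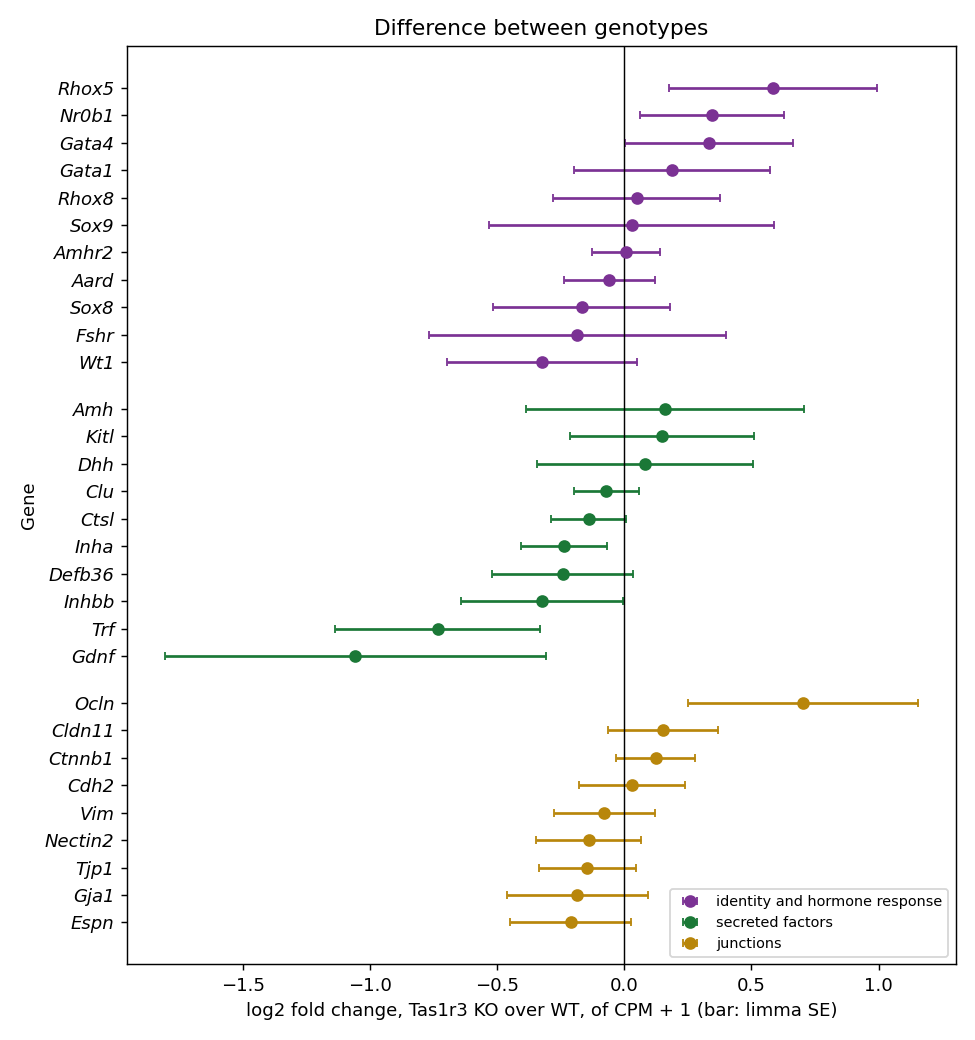
Log2 fold changes (x axis, log2 of CPM + 1, Tas1r3 KO over WT, 2 samples each) of the 30 genes (y axis), ordered within each group, with bars for the limma standard error. Values run from -1.06 for Gdnf to 0.70 for Ocln, and 0 of the 30 genes passed the test.

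Genes of Sertoli cell identity and hormone response had a median log2 fold change of 0.03, beside -0.05 over all genes. Above 0 were 7 of 11 (63.6%), beside 44.6% of all genes. The median was -0.13 without KO sample 1 and 0.21 without KO sample 2. The androgen-dependent homeobox gene Rhox5 stood at 17.4 and 10.03 CPM in KO samples 1 and 2, against 9.31 and 7.74 CPM in WT samples 1 and 2. Nr0b1, an orphan nuclear receptor that represses steroidogenic genes, stood at 25.4 and 20.1 CPM in KO and at 17.5 and 17.6 CPM in WT. Both KO samples were above both WT samples for these 2 X-linked genes, 18.2% of the identity group, beside 15% of all genes. The log2 fold changes of 0.59 (SE 0.41) for Rhox5 and 0.35 (SE 0.28) for Nr0b1 did not pass (limma adjusted p = 0.942 each). Rhox5 rested on 13 and 6 reads in KO and 16 and 14 reads in WT, a depth-scaled ratio of 1.66 (interval 0.882 to 3.05). For Nr0b1 the ratio was 1.31 (interval 0.822 to 2.05).

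The other X-linked members overlapped between genotypes. Rhox8, a neighbour of Rhox5 in the same homeobox cluster, stood at 17.4 and 13.4 CPM in KO and at 16.3 and 13.3 CPM in WT. Gata1, an erythroid transcription factor that Sertoli cells also make, stood at 9.35 and 11.7 CPM in KO and at 9.89 and 8.30 CPM in WT. Rhox8 had a log2 fold change of 0.05 (SE 0.33) and Gata1 of 0.19 (SE 0.39).

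Several factors that set and hold Sertoli cell fate differed in CPM between the KO samples, on few reads. Sox9, the testis-determining transcription factor downstream of Sry, stood at 22.0 and 6.03 CPM in KO samples 1 and 2, about 16 and 4 reads, and at 10.02 and 13.1 CPM in WT. Wt1, which maintains the Sertoli cell state, stood at 33.4 and 15.1 CPM in KO (25 and 9 reads) and at 30.5 and 26.4 CPM in WT. Sox8, a relative of Sox9 with overlapping roles, stood at 21.5 and 12.3 CPM in KO (16 and 7 reads) and at 19.3 and 17.7 CPM in WT. For each of the 3, KO sample 1 was above and KO sample 2 below both WT samples, so the genotypes overlapped. For Sox8 the counting interval of KO sample 1 over KO sample 2, 0.711 to 5.25, included a ratio of 1. Gata4, a zinc finger factor of the somatic gonad, stood at 20.0 and 28.4 CPM in KO and at 14.9 and 23.5 CPM in WT. It was lower in KO sample 1 than in KO sample 2, on 15 and 17 reads, and KO sample 1 lay between the WT samples. The counting interval of KO sample 1 over KO sample 2 for Gata4, 0.328 to 1.5, included a ratio of 1. The log2 fold change of Gata4 was 0.33 (SE 0.33), with an adjusted p of 0.942 in limma.

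The 2 hormone receptors sat at very different levels. Amhr2, the receptor of anti-Müllerian hormone, stood at 224 and 212 CPM in KO and at 210 and 225 CPM in WT, with a log2 fold change of 0.01 (SE 0.13). Its depth-scaled read ratio was 1.01 with an interval of 0.877 to 1.15, the range of change these reads allow. Fshr, the receptor of follicle-stimulating hormone, stood at 4.06 and 1.93 CPM in KO (3 and 1 reads) and at 4.08 and 2.77 CPM in WT (7 and 5 reads). Its ratio of 0.873 had an interval of 0.205 to 2.88, so a change of several fold was not detectable at this depth. Aard, a gene of Sertoli cells named for its alanine- and arginine-rich domain, stood at 122 and 93.6 CPM in KO and at 115 and 108 CPM in WT.

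**Figure D2:**
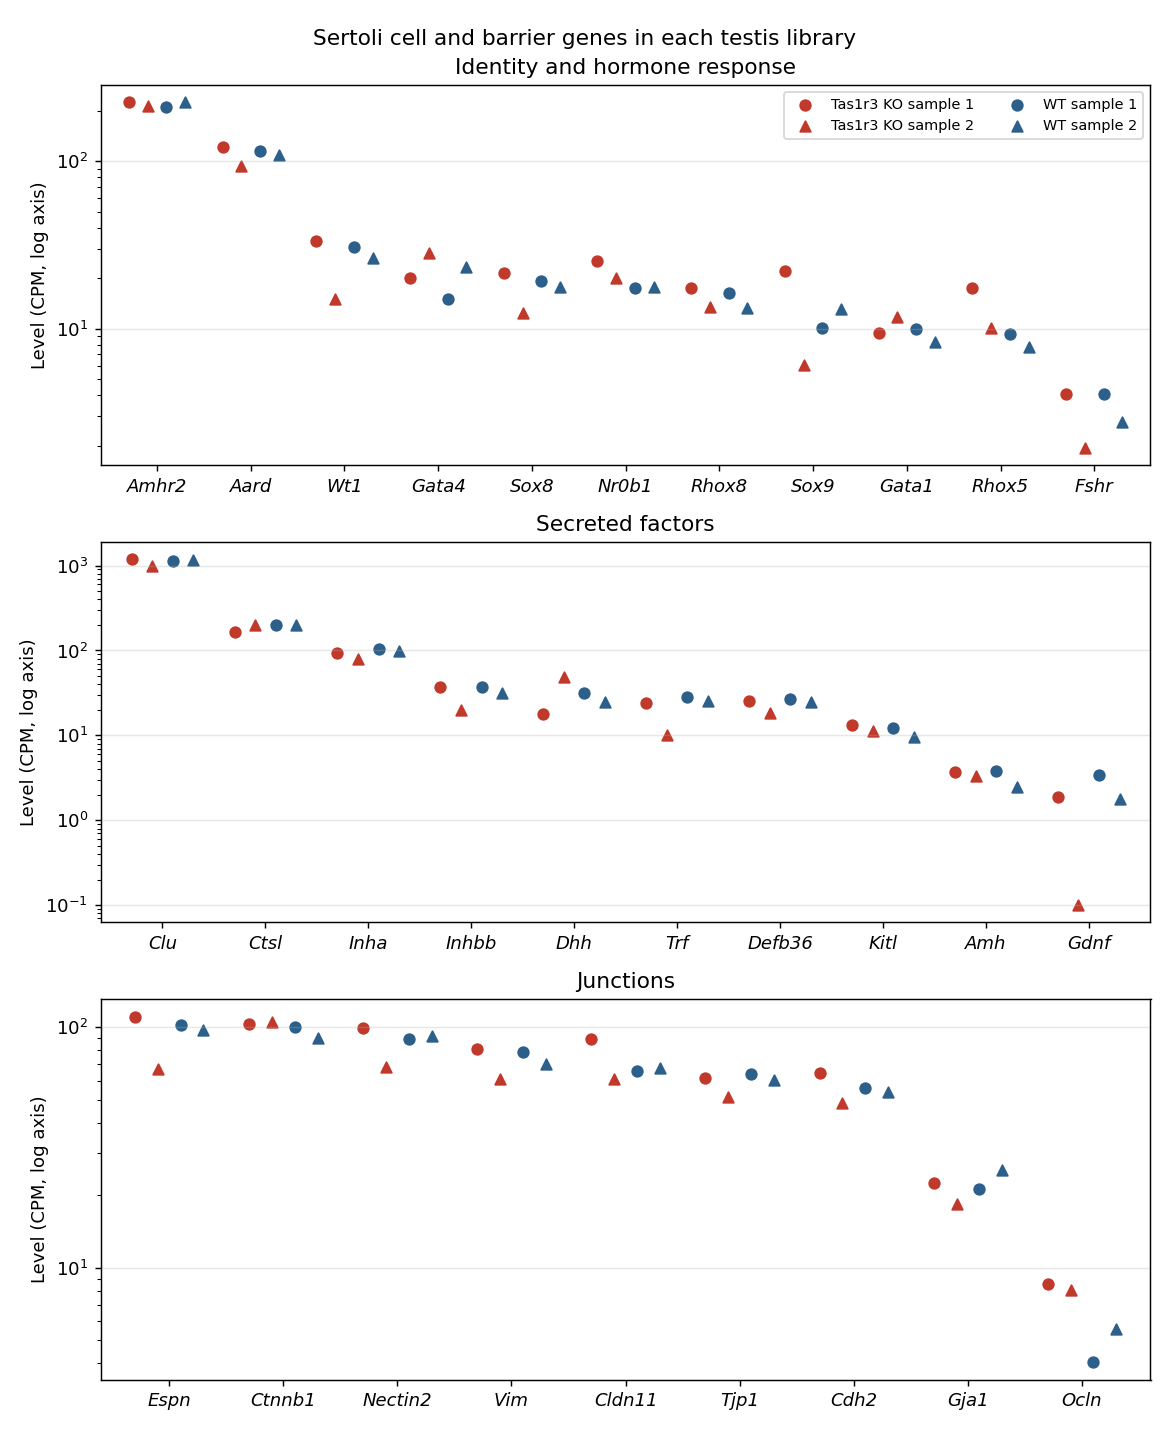
Level of each gene (y axis, CPM, log axis) in KO samples 1 and 2 (red circle and triangle) and WT samples 1 and 2 (blue circle and triangle), by group and by falling WT mean. A value under 0.1 CPM, that of Gdnf in KO sample 2, is drawn at 0.1; for many genes the red circle stands above and the red triangle below both blue points, as for Sox9 at 22.0 and 6.03 CPM.

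Secreted factors had a median log2 fold change of -0.19, beside -0.05 over all genes, and 0 passed. Above 0 were 3 of 10 (30%), beside 44.6% of all genes, and 7 were below. The median was -0.28 without KO sample 1 and -0.07 without KO sample 2. Trf, which encodes transferrin, the carrier of iron to germ cells, stood at 24.04 and 10.03 CPM in KO and at 28.1 and 25.2 CPM in WT. Inha, the alpha subunit of inhibin, which restrains pituitary release of follicle-stimulating hormone, stood at 93.5 and 78.6 CPM in KO and at 104 and 98.9 CPM in WT. Ctsl, a lysosomal cysteine protease that Sertoli cells also release, stood at 167 and 197 CPM in KO and at 202 and 199 CPM in WT. In these 3 genes, 30% of the group, the KO values lay below the WT values without overlap, beside 19.4% of all genes. No secreted factor lay above, beside 15% of all genes, and 34.4% of all genes lay on either side. The log2 fold changes were -0.73 (SE 0.40) for Trf, -0.24 (SE 0.17) for Inha and -0.14 (SE 0.15) for Ctsl. Their counting intervals for KO over WT also included 1, for Trf from 0.408 to 1.06.

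Inhbb, the beta B subunit that pairs with Inha to give inhibin B, stood at 36.7 and 19.7 CPM in KO and at 36.9 and 31.2 CPM in WT. Only KO sample 2 was outside the WT range, and the log2 fold change was -0.32 (SE 0.32). Per kilobase, Inhbb averaged 7.32 CPM per kb, well under the 63.0 CPM per kb of Inha. Amh, the hormone that removes the Müllerian ducts in the fetus and is low in the adult testis, stood at 3.70 and 3.34 CPM in KO and at 3.76 and 2.44 CPM in WT, on 2 to 6 reads a library.

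Dhh, the hedgehog ligand that Sertoli cells send to Leydig and peritubular cells, was the member in which KO sample 2 stood highest over KO sample 1. It was at 18.0 and 48.5 CPM in KO samples 1 and 2 and at 31.5 and 24.9 CPM in WT. The KO samples thus lay on opposite sides of the WT samples, and the log2 fold change was 0.08 (SE 0.43). Kitl, the ligand of the KIT receptor on differentiating spermatogonia, stood at 13.4 and 11.1 CPM in KO and at 12.3 and 9.65 CPM in WT. Gdnf, the factor that keeps spermatogonial stem cells renewing, had 1 and 0 reads in KO and 6 and 3 reads in WT. Its depth-scaled ratio of 0.291 had an interval of 0.00664 to 2.10, so no difference was detectable at this depth.

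Clu and Defb36 completed the secreted group. Clu stood at 1182 and 998 CPM in KO and at 1128 and 1154 CPM in WT, with the narrowest counting interval of the list, 0.908 to 1.02 around a KO over WT ratio of 0.964. Defb36, a beta-defensin made in Sertoli cells whose promoter is printed above, stood at 25.4 and 18.4 CPM in KO and at 26.6 and 24.9 CPM in WT. Defb36 had a log2 fold change of -0.24 (SE 0.28). Rhox5, the other gene with the androgen receptor core among the members searched, had 0.59.

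Junction genes had a median log2 fold change of -0.08, beside -0.05 over all genes, and 0 passed the test. Above 0 were 4 of 9 (44.4%), beside 44.6% of all genes. The median was -0.28 without KO sample 1 and 0.13 without KO sample 2. Among the tight junction genes, Cldn11, the claudin that forms the strands of the barrier, stood at 89.6 and 61.1 CPM in KO and at 65.7 and 67.5 CPM in WT. Tjp1, the scaffold protein ZO-1, stood at 61.4 and 51.1 CPM in KO and at 63.9 and 60.2 CPM in WT. Ocln, which encodes occludin, stood at 8.58 and 8.09 CPM in KO and at 4.04 and 5.53 CPM in WT. Of these 3 genes, Ocln was the 1 in which the KO values lay above the WT values without overlap, with the highest log2 fold change of the list, 0.70 (SE 0.45, limma adjusted p = 0.942). It rested on 6 and 5 reads in KO and 7 and 10 reads in WT, a ratio of 1.70 with an interval of 0.718 to 3.84.

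Of the gap and adherens junction genes, Gja1, the connexin 43 of Sertoli cell gap junctions, stood at 22.5 and 18.4 CPM in KO and at 21.2 and 25.4 CPM in WT. Cdh2, N-cadherin of the basal junctions, stood at 64.3 and 48.4 CPM in KO and at 55.6 and 53.5 CPM in WT. Ctnnb1, the beta-catenin that ties cadherins to actin, stood at 103 and 105 CPM in KO and at 101 and 90.6 CPM in WT. Ctnnb1 was the other junction gene in which both KO samples were above both WT samples, by a log2 fold change of 0.12 (SE 0.16) that did not pass. Such genes made up 22.2% of the junction group, beside 15% of all genes.

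The last 3 genes belong to the actin-rich contacts with spermatids and to the cytoskeleton. Nectin2, the Sertoli cell adhesion molecule of the ectoplasmic specialization, stood at 98.8 and 68.3 CPM in KO and at 89.5 and 91.8 CPM in WT. Espn, an actin bundling protein of the same structure, stood at 111 and 67.2 CPM in KO and at 102 and 97.7 CPM in WT. Vim, the intermediate filament protein vimentin, stood at 81.3 and 61.0 CPM in KO and at 78.8 and 70.3 CPM in WT. KO sample 1 was above and KO sample 2 below both WT samples in each. Espn was the 1 member on the chromosome of the targeted gene: it lies on chromosome 4 of mm39 from 152205333 to 152236847, and 3.71 Mb separate it from Tas1r3. Its log2 fold change was -0.21 (SE 0.24).

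The members also differed between the 2 KO libraries. KO sample 1 was higher than KO sample 2 in 25 of 30 members (83.3%), beside 50.9% of all genes tested, with a median log2 difference of 0.37, beside 0.01 over all genes. By group, it was higher in 9 of 11 identity genes, 8 of 10 secreted factors and 8 of 9 junction genes. WT sample 1 was above WT sample 2 in 7 of 11 identity genes, 9 of 10 secreted factors and 5 of 9 junction genes, so for secreted factors the WT count was the higher one. The members lower in KO sample 1 than in KO sample 2 were Gata4, Gata1, Dhh, Ctsl and Ctnnb1. WT sample 1 was above WT sample 2 in 21 of 30 members, beside 53.7% of all genes, with a median log2 difference of 0.09. The KO pair lay farther apart than the WT pair in 24 of 30 members, beside 66.2% of all genes, and the KO libraries were also the shallower ones. The median absolute log2 difference of the members was 0.41 between the KO samples and 0.16 between the WT samples.

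Set against WT, KO sample 1 was above both WT samples in 16 of 30 members, beside 36% of all genes, and KO sample 2 was below both in 19 of 30, beside 42.7%. In 10 members both held: Sox9, Sox8, Wt1, Aard, Clu, Cldn11, Cdh2, Vim, Espn and Nectin2, beside 14.3% of all genes. Dhh was the 1 member with the opposite order, beside 12.9% of all genes. Counting intervals for KO sample 1 over KO sample 2 did not include a ratio of 1 for 5 of the 30 members (16.7%), beside 7.99% of all genes tested, a share that also depends on how many reads a gene has. For Sox9 the depth-scaled ratio was 3.20 (interval 1.03 to 13.1), for Wt1 2.22 (interval 1.002 to 5.40) and for Espn 1.66 (interval 1.12 to 2.48). Clu, with the most reads, gave 1.18 (interval 1.07 to 1.32), and Dhh 0.358 (interval 0.171 to 0.711). These intervals are per gene and not adjusted for the 30 looked at.

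**Figure D3:**
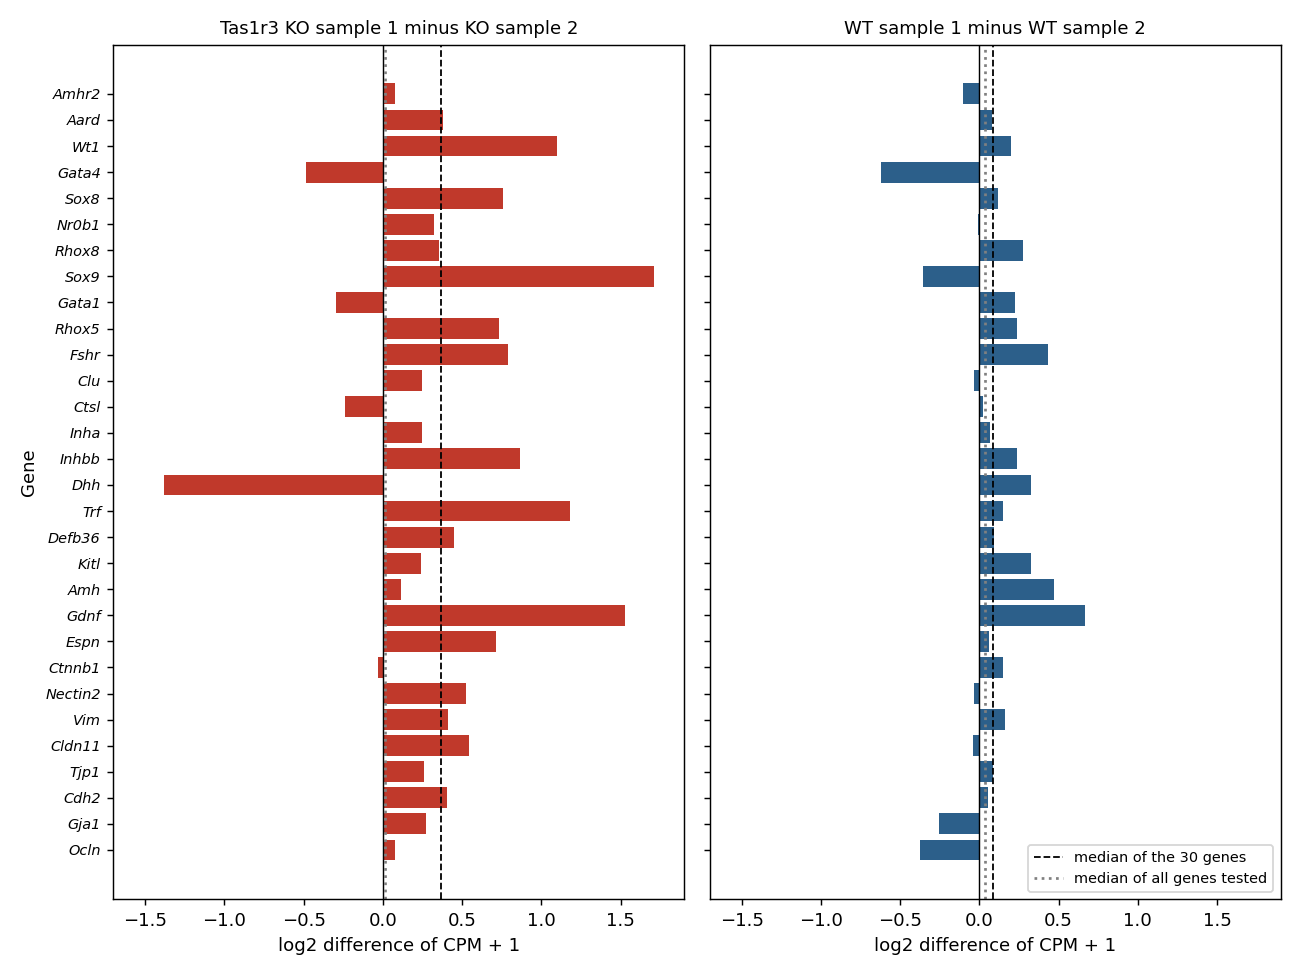
Log2 difference of CPM + 1 (x axis) between the 2 KO samples (left) and between the 2 WT samples (right) for each gene (y axis). Dashed and dotted lines mark the medians of the 30 genes (0.37 in KO and 0.09 in WT) and of all genes tested (0.01 in KO).

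Leaving out a KO library showed how much each carried. Without KO sample 1, 4 of 30 members passed in limma (13.3%), beside 7.04% of all genes: Trf (log2 fold change -1.33, adjusted p = 0.0024), Wt1 (-0.87, adjusted p = 0.045) and Espn (-0.57, adjusted p = 0.0302) as lower, and Dhh (0.77, adjusted p = 0.0384) as higher. Without KO sample 2, 0 of 30 members passed, beside 3.2% of all genes, and the log2 fold changes of Wt1, Espn and Dhh were 0.23, 0.15 and -0.61, each of the opposite sign, while that of Trf was -0.14. In both fits the lone KO library was assumed to vary like the WT pair.

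Summed over the 30 genes, the level was 2723 and 2299 CPM in KO samples 1 and 2 and 2614 and 2598 CPM in WT samples 1 and 2. Without Clu the sums were 1541 and 1301 CPM in KO and 1485 and 1444 CPM in WT, so the ratio of KO sample 1 to KO sample 2 was 1.18 with or without that gene. Markers of germ cells (8 of 8 detected) had a sum of 19760 and 30160 CPM in KO and 23700 and 23640 CPM in WT, and the gap between the KO samples was 1.04% of a library. That gap came from the late spermatid genes Prm1, Prm2, Tnp1 and Tnp2, the protamines and transition proteins that pack sperm DNA. Without these genes the germ cell sum was 679.5 and 621.5 CPM in KO and 664.1 and 584.7 CPM in WT, and 3 of the 8 markers (Zbtb16, Ddx4 and Sycp3) were higher in KO sample 1 than in KO sample 2. Leydig cell markers (8 of 8 detected) summed to 1650 and 1697 CPM in KO and 1810 and 1899 CPM in WT. Markers of peritubular myoid cells (6 of 6 detected) summed to 89.6 and 90.4 CPM in KO and 118 and 123 CPM in WT. In the myoid list 5 of 6 genes were below both WT samples in KO sample 1 and 5 of 6 in KO sample 2. The shares of all genes were 39.55% and 42.7%. The 5 genes differed: Cnn1 lay between the WT samples in KO sample 1, and Acta2 in KO sample 2. Myh11, Tagln, Des and Smtn were below in both KO samples, as were 19.4% of all genes. These are low genes in shallow libraries. Smtn, at 3.95 and 3.94 CPM in KO, was under the value of 3 reads (4.01 and 5.02 CPM). Des stood at 9.35 and 11.1 CPM in KO and at 12.5 and 12.0 CPM in WT. The Leydig sum was set by Insl3, at 1234 and 1278 CPM in KO and 1517 and 1464 CPM in WT. Without Insl3 it was 416.5 and 418.8 CPM in KO and 293.3 and 434.8 CPM in WT, so the genotypes overlapped. Below both WT samples were 1 of 8 Leydig genes in KO sample 1 and 3 of 8 in KO sample 2. These stood beside 39.55% and 42.7% of all genes. Above both were 3 of 8 and 2 of 8, beside 36% and 35.25% of all genes. Endothelial markers (5 of 6 matched) summed to 27.0 and 20.6 CPM in KO and 27.5 and 32.7 CPM in WT, with Pecam1 below 0.5 reads in KO sample 2 and WT sample 1. Macrophage markers (5 of 6 matched) summed to 32.7 and 41.9 CPM in KO and 37.1 and 43.9 CPM in WT. Whether the makeup of the samples had a part in the Sertoli cell values was not tested.

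**Figure D4:**
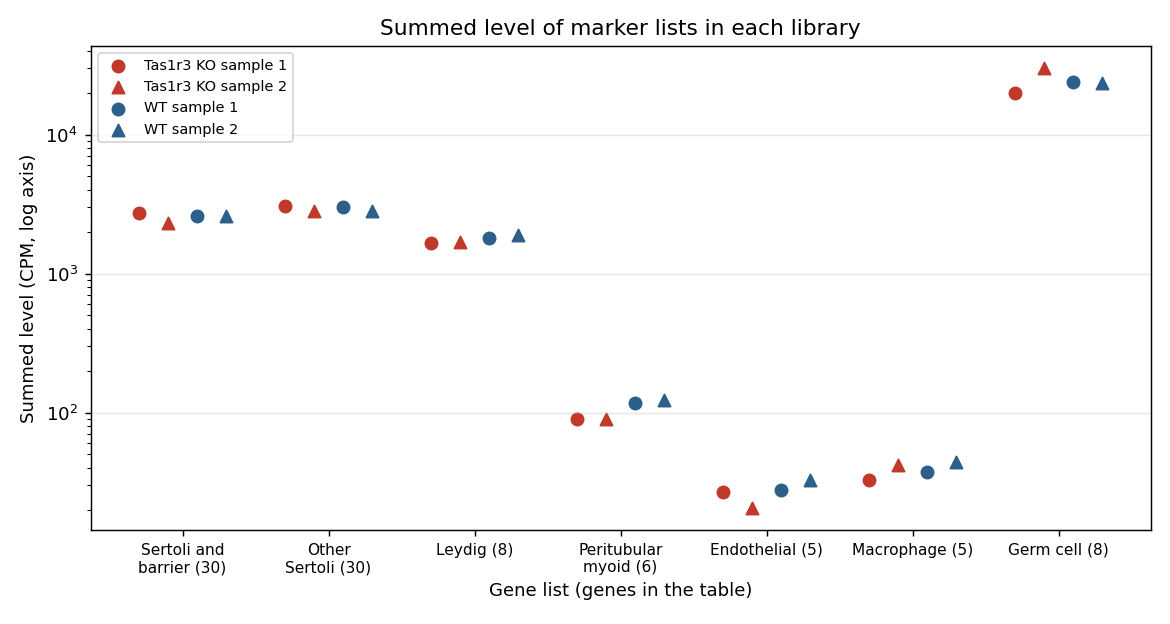
Summed level of each marker list (y axis, CPM, log axis; x axis, list with its number of genes in the table) in KO samples 1 and 2 (red circle and triangle) and WT samples 1 and 2 (blue circle and triangle). The Sertoli and barrier sum is lowest in KO sample 2 (2299 CPM), where the germ cell sum is highest (30160 CPM).

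Transcript shares inside single genes rest on the authors' division of reads between RefSeq transcripts. The split varied least in Inha and Amhr2. The 1475-base transcript of Inha took 94.4% to 98.1% of its CPM, and the 1947-base transcript of Amhr2 took 86.7% to 92.1%. The Amhr2 share was 92.09% in KO samples 1 and 2 and in WT sample 2 alike. In the same libraries the 5372-base transcript of Kitl took 68.14% each time. Whether such identical shares were set by the division of reads was not tested. Shares of Ctnnb1 moved more, with the 3623-base transcript at 48.1% to 73.7%. In Espn the 3043-base transcript took 59.7% and 91.1% in KO samples 1 and 2 and 75.7% and 88.0% in WT samples 1 and 2. The shares of Gata4, whose transcripts differ by 3 bases (3405 and 3408), ran from 1.53% to 98.5%, and those of Ocln from 0% to 100%. With the reads given above for Ocln, and with transcripts of nearly equal sequence for Gata4, no isoform difference can be read from these 2 genes.

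Other genes of the same pathways were not called either, which says little, since only 1 of all 17744 genes tested passed. Of 31 other Sertoli cell genes 30 matched and were tested. Above 0 were 17 (56.7%, beside 44.6% of all genes) and below 0 were 13. The median log2 fold change of the list was 0.01. In limma 0 passed and 0 had an unadjusted p under 0.05, beside 4.69% of all genes. Genotypes did not overlap in 8 of the 30 (26.7%), beside 34.4% of all genes. Named genes are the 3 of lowest p in each of the 3 other lists. Lack of overlap in them follows largely from that choice. Lowest p in that list went to Fabp5, a fatty acid binding protein, at 0 and 2.32 CPM in KO (0 and 1 reads) and 3.20 and 6.55 CPM in WT (5 and 12 reads). Dmrt1, a transcription factor of Sertoli cells and spermatogonia, stood at 37.1 and 26.6 CPM in KO and 23.9 and 16.3 CPM in WT, without overlap. Etv5, an ETS factor needed for stem cell upkeep, stood at 18.7 and 18.6 CPM in KO and 12.7 and 13.8 CPM in WT, also without overlap. The log2 fold changes of Dmrt1 (0.65, SE 0.30) and Etv5 (0.47, SE 0.30) had a limma adjusted p of 0.942 each.

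Another list joined receptors and signal carriers of the secreted factors to the Fshr partners Gnas, Adcy3, Creb1 and Pde4d. Of its 33 genes 32 matched and were tested, 22 below 0 and 10 above 0. The median log2 fold change was -0.17. In limma 0 passed and 2 had an unadjusted p under 0.05 (6.25%, beside 4.69% of all genes). Genotypes did not overlap in 10 of the 32 (31.2%), beside 34.4% of all genes, and the 31.2% above 0 stood beside 44.6%. Tgfbr3, or betaglycan, the co-receptor that gives inhibin its high affinity, stood at 6.36 and 3.35 CPM in KO (5 and 2 reads) and at 13.1 CPM in each WT sample (23 and 24 reads). Smad1, which carries signals of bone morphogenetic proteins and anti-Müllerian hormone, stood at 12.0 and 9.54 CPM in KO (9 and 6 reads) and at 18.5 and 19.6 CPM in WT (32 and 36 reads). The KO values of these 2 genes lay below the WT values without overlap, which their choice by lowest p makes likely. Their log2 fold changes were -1.32 (SE 0.45) and -0.77 (SE 0.33), with unadjusted limma p of 0.0189 and 0.0449 and an adjusted p of 0.942 each. Smo, the signal transducer of the hedgehog pathway that Dhh activates, stood at 1.34 and 5.16 CPM in KO (1 and 3 reads) and at 6.46 and 7.13 CPM in WT (11 and 13 reads).

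Of 42 other junction and adhesion genes 41 matched and were tested. Above 0 were 23 (56.1%, beside 44.6% of all genes) and below 0 were 18. The median log2 fold change of the list was 0.05. In limma 0 passed and 1, Pkp2, had an unadjusted p under 0.05 (2.44%, beside 4.69% of all genes). Genotypes did not overlap in 11 of the 41 (26.8%), beside 34.4% of all genes. Pkp2, a plakophilin of desmosomes, stood at 9.35 and 9.62 CPM in KO (7 and 6 reads) and at 4.24 and 4.10 CPM in WT (7 reads each). Lsr, a protein of tricellular tight junctions, stood at 25.4 and 13.8 CPM in KO and at 36.5 and 28.2 CPM in WT. Fscn1, the actin bundler fascin 1, stood at 6.91 and 7.90 CPM in KO and at 14.5 and 13.0 CPM in WT. These 3 had the lowest p in their list, a choice that makes lack of overlap likely. The genotypes did not overlap in any of them. Their log2 fold changes were 1.02 (SE 0.44) for Pkp2, -0.74 (SE 0.34) for Lsr and -0.81 (SE 0.37) for Fscn1. The limma adjusted p was 0.942 for each. KO sample 1 was above KO sample 2 in 18 of 30 other Sertoli cell genes and in 23 of 41 other junction genes, 60.0% and 56.1%. Among all genes this share was 50.9%.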

How the data were processed

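Testis RNA of 2 Tas1r3 KO and 2 WT samples was grouped by the titles in the labels. Libraries came from an Ion Torrent total RNA kit, per the labels' protocols, and STAR and Partek were used on mm39, per the submitters' processing notes. The sources used here give no version, setting, strand handling or annotation release. The tables deposited by the authors hold CPM for each of 29342 RefSeq transcripts, adding up to 1000000 in a library; the series table and the sample tables were identical in 4 of 4 columns. Columns left unused number 0.

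Transcript rows were summed per symbol. The value of 1 read (1.34 and 1.67 CPM in KO samples 1 and 2, 0.582 and 0.553 CPM in WT samples 1 and 2) was taken as the gap between the commonest low values. Genes came out whole within 0.02 reads in only 48.1%, 47.5%, 23.1% and 26.2% of cases in that order of libraries, so read numbers are rounded estimates, whole reads were not recovered and no count test was run. Exact 95% intervals of read ratios cover counting error only.

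Genes at 1 CPM or more in 2 or more libraries entered a limma fit (version 3.58.1, R 4.3.3) of log2(CPM + 1), using a trend of variance on mean, and p-values were adjusted by Benjamini-Hochberg over all genes at 0.05; this scale understates changes of low genes. No permutation test was used, since 2 samples against 2 allow no two-sided p under 0.333. The fit was checked on simulated data, for the sign of called changes and the correlation of fitted with set changes. Noise beyond counting was set equal in both genotypes, so the check does not cover a genotype of wider spread. Members and lists were chosen with earlier results of these data known. Named genes were all members, Tas1r3, and the 3 genes of lowest p in each of 3 other lists. Promoters came from RefSeq (GRCm38.p6). Alternatives covered pseudocount, filter, scaling (trimmed mean of M values, quantile), trend, replicate block and each sample left out; those for KO sample 1 against KO sample 2 were added after the data were seen. Python 3.11.15, pandas 2.3.3, numpy 2.4.6, scipy 1.17.1 and matplotlib 3.10.9 were used.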

Additional observations from a re-analysis of the deposited data

How the results depend on the processing

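Limits: 2 samples a genotype, KO libraries of lower depth, and estimated rather than deposited reads. The count of genes past the threshold, 0 higher and 1 lower in KO, moved to 0 lower with a pseudocount of 0.1 and to 0 lower without a mean trend. It ran from 0 to 371 higher and from 0 to 878 lower when a sample was left out. The correlation of deviations between same-numbered samples was -0.005. With 2 samples a genotype this value cannot show whether replicate numbers paired the samples. With the replicate block 6 genes were higher and 17 lower, with 0 members. Members past the threshold ran from 0 to 4 when a sample was left out, and were 0 under every other alternative run. When a sample was left out, the median ran from -0.22 to 0.12 for all members, from -0.13 to 0.21 for identity genes, from -0.28 to -0.07 for secreted factors and from -0.28 to 0.13 for junction genes, so all but the secreted median changed sign. Fshr reversed to 0.039 with quantile normalization. Leaving out a sample turned the sign of 17 members, none of them called with all samples, and the cause was not tested. Their log2 fold changes ran for Fshr from -0.58 to 0.21, Sox9 from -0.82 to 0.88, Amhr2 from -0.044 to 0.057, Vim from -0.28 to 0.13, Rhox8 from -0.13 to 0.23, Amh from -0.075 to 0.40. They ran for Dhh from -0.61 to 0.77, Kitl from -0.016 to 0.31, Cldn11 from -0.12 to 0.42, Cdh2 from -0.17 to 0.23, Sox8 from -0.55 to 0.21, Wt1 from -0.87 to 0.23. For the others they ran for Aard from -0.25 to 0.13, Clu from -0.19 to 0.051, Inhbb from -0.76 to 0.11, Espn from -0.57 to 0.15, Nectin2 from -0.40 to 0.12. For KO sample 1 against KO sample 2, 25 of 30 members were higher after both rescalings, 22 of 27 with a filter of 5 CPM and 21 of 25 at a mean of at least 10 CPM, where 55.1% of all genes were. The median log2 difference lay between 0.33 and 0.38.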
